A study of Homo sapiens with 6 samples.

Results

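The 7 genes described here code for the proteins that hold the small nuclear RNA 7SK and the kinase P-TEFb: LARP7, MEPCE, HEXIM1, HEXIM2, CDK9, CCNT1 and CCNT2. They were chosen by name, 7 of 23656 genes with summed values, though earlier results of these data were known. HEK293, a human embryonic kidney cell line, was sampled as 3 control libraries from cells kept at 37°C and 3 heat shock libraries from aliquots of cells held in a tube at 45°C for 30 minutes. The labels name no other treatment and no altered gene in either group. Total RNA was depleted of ribosomal RNA before sequencing, and the study asked which transcripts differ between the groups. The unit is FPKM, a fragment number corrected for transcript length and library size, as Cufflinks estimated it for each transcript of each library, and the FPKM of a gene is the sum over its transcripts. In bulk RNA, a lower level per cell and fewer expressing cells cannot be told apart.

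P-TEFb, made of the kinase CDK9 and a cyclin T, releases RNA polymerase II from its pause near the promoter by phosphorylating the polymerase and the factors that hold it there. A part of P-TEFb is kept inactive in the 7SK particle, in which 7SK RNA carries HEXIM1 or HEXIM2, the inhibitors of the kinase. MEPCE caps the 5′ end of 7SK and LARP7 binds its 3′ end, and both protect the RNA. Stress is known to shift P-TEFb between the particle and its active forms, a change of binding that RNA levels do not measure. The 5′ stretch of 7SK is shown because it is the part that HEXIM proteins bind. It is read from GRCh37, chr6:52860419-52860526 on the plus strand, with the copies of GATC in capitals at bases 12 to 15, 41 to 44 and 63 to 66 of the annotated interval.
7SK: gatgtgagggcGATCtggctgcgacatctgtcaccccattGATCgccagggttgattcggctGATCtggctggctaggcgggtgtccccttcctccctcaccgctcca

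The libraries stood apart in ways that the labels do not explain. Values are given throughout in the order of replicates 1, 2 and 3. There were 141632, 194489 and 45600 single-exon transcripts without a strand among the controls, against 17304, 30334 and 151889 among the heat shock libraries. The common factor of a library, its median ratio to the other libraries over 997 genes above 10 FPKM in each of the 6, was 0.948, 0.439 and 0.967 in the controls and 2.16, 2.34 and 0.493 in the heat shock libraries. Heat shock replicate 3 therefore lay beside control replicate 2 by its factor, and beside control replicates 1 and 2 by its transcripts without a strand. It nevertheless had more of the heat shock gene DNAJB1 than any control, 34.0 FPKM against 4.84 to 9.18. Of 6 HEK293 markers, 5 were above 1 FPKM in every library, and PAX2 spanned 0.320 to 4.26 FPKM. Of 4 genes of other cell types, PTPRC, ALB and PECAM1 were below 1 FPKM in every library and COL1A1 lay between 3.23 and 4.16 FPKM.

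As deposited, no member passed the test between heat shock and control, and CCNT2 was the 1 member whose groups did not overlap. The test was limma with Benjamini-Hochberg adjustment over the 13179 genes whose mean reached 1 FPKM, and a call needed both an adjusted p under 0.05 and over 2-fold change. It called 3 genes, 0.0228% of those tested: the small RNAs SCARNA11, SNAR-E and SNORA30, named here after their values were seen. All 7 members were tested, and 6 of them had a higher mean on the log2 scale in the heat shock libraries, with a median log2 fold change of 0.56. Over all genes tested the median was 0.45, and 72.8% were higher. Divided by the common factor, the median of the members was -0.08 and 2 of 7 were higher, against a median of -0.25 and 25.8% of 14005 genes tested. The same limma test then called 0 genes, 0.0% of those tested, with 431 at an unadjusted p under 0.05.

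**Figure D1:**
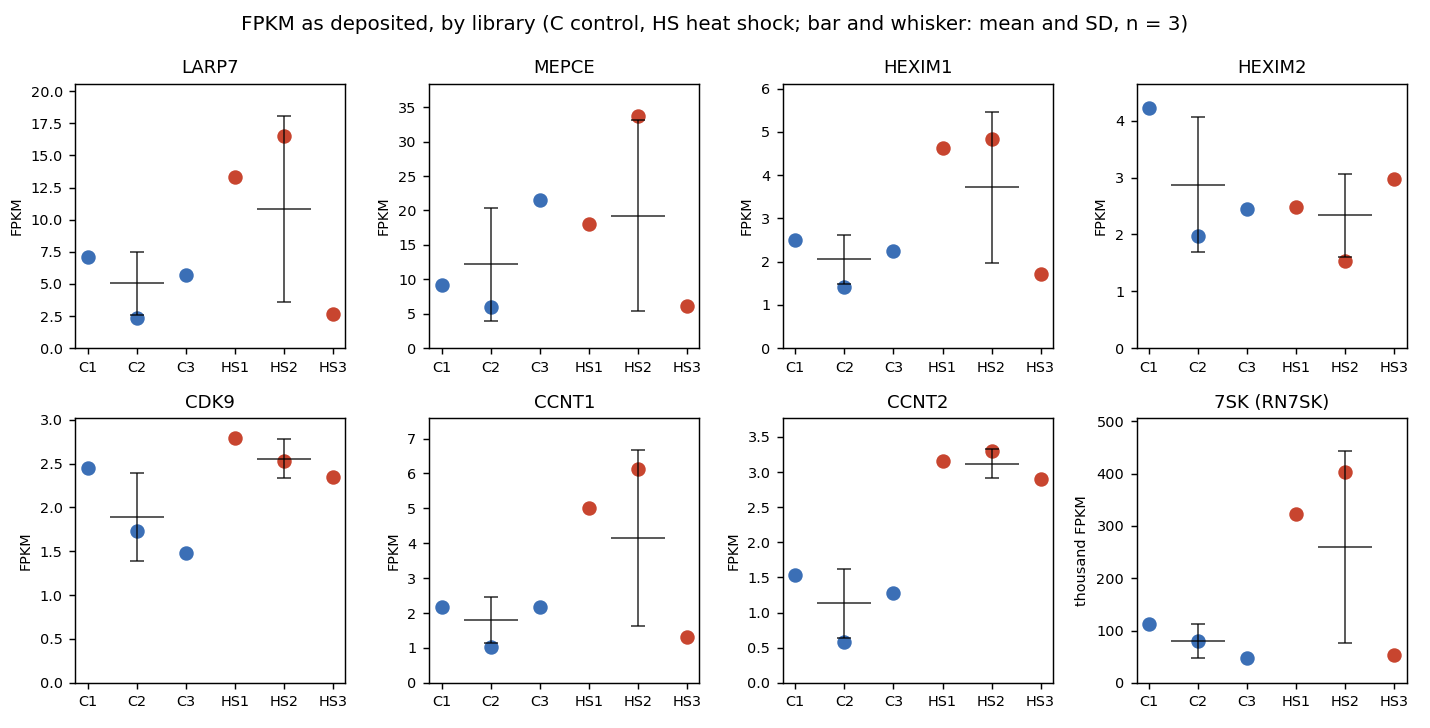
FPKM as deposited (y axis; 7SK on a scale of its own) in each library (x axis; C control, HS heat shock, replicates 1 to 3), with the mean and SD of each group as bar and whisker (n = 3). HS3 lies within the range of the controls for 7SK and every member but CCNT2. CCNT2 has all 3 heat shock libraries, 2.90 to 3.30 FPKM, above the controls.

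LARP7, the La-related protein that binds the 3′ end of 7SK, lies on chr4:113558120-113578748 (hg19, plus strand). Its level was 7.13, 2.36 and 5.70 FPKM in the controls and 13.3, 16.5 and 2.69 FPKM in the heat shock libraries. Heat shock replicates 1 and 2 exceeded all controls, and replicate 3 was among them. The log2 fold change was 0.78 ± 0.71 (SE, n = 3 per group, limma adjusted p = 0.708). The first 32 bases of the gene overlap the start of ZGRF1 on the other strand. Since the kit used does not mark strand, reads of the overlap could belong to either gene. The microRNA genes MIR302A, MIR302B, MIR302C, MIR302D and MIR367, which lie in LARP7 in the opposite direction, were listed at 0 FPKM in all 6 libraries.

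MEPCE, the enzyme that methylates the 5′ cap of 7SK, lies on chr7:100026413-100031749 (hg19, plus strand). By the plain sum of FPKM it had the highest mean of the members, 9.16, 5.95 and 21.5 FPKM in the controls and 18.0, 33.7 and 6.06 FPKM in the heat shock libraries. The groups overlapped over most of their range, and the log2 fold change was 0.52 ± 0.81 (SE, n = 3 per group, limma adjusted p = 0.741). The high values of control replicate 3 and heat shock replicate 2 came from short assembled transcripts at the 3′ end of the gene. In control replicate 3 a transcript of 733 bases held 20.4 FPKM (Cufflinks 95% interval 16.2 to 24.6), while the annotated NM_019606 of 3030 bases held 1.08 FPKM. In heat shock replicate 2 a transcript of 1118 bases held 31.7 FPKM (28.3 to 35.2). Without heat shock replicate 2 the log2 fold change of MEPCE was -0.01.

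HEXIM1, the main inhibitor of P-TEFb, has 1 exon and 1 annotated transcript on chr17:43224684-43229468 (hg19, plus strand), so its value does not depend on how fragments were shared among isoforms. Its level was 2.50, 1.42 and 2.23 FPKM in the controls and 4.62, 4.83 and 1.70 FPKM in the heat shock libraries. The Cufflinks 95% interval was 4.03 to 5.22 FPKM in heat shock replicate 1 and 1.38 to 2.02 FPKM in heat shock replicate 3. As deposited, these libraries thus differed by more than their counting error within the group. Divided by the common factor, HEXIM1 was 2.14 in heat shock replicate 1 and 3.46 in heat shock replicate 3, the reverse order. The log2 fold change as deposited was 0.56 ± 0.49 (SE, n = 3 per group, limma adjusted p = 0.708).

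HEXIM2, a related inhibitor, lies 8795 bases downstream of HEXIM1, on chr17:43238264-43247406 (hg19, plus strand). Its level was 4.22, 1.97 and 2.44 FPKM in the controls and 2.48, 1.54 and 2.98 FPKM in the heat shock libraries. It was the 1 member with a lower mean after heat shock, by a log2 fold change of -0.20 ± 0.46 (SE, n = 3 per group, limma adjusted p = 0.815). Its sign turned without control replicate 1, where the log2 fold change was 0.04. The annotated spliced transcript was above 0 in heat shock replicates 1 and 2 alone, at 2.48 and 1.54 FPKM, and the other 4 libraries held assembled transcripts in its place.

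CDK9, the kinase, lies on chr9:130548305-130553052 (hg19, plus strand). Its level was 2.45, 1.73 and 1.48 FPKM in the controls and 2.79, 2.53 and 2.34 FPKM in the heat shock libraries. The groups overlapped only through control replicate 1 and heat shock replicate 3, and the log2 fold change was 0.31 ± 0.43 (SE, n = 3 per group, limma adjusted p = 0.725).

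CCNT1, the cyclin T found in most P-TEFb, lies on chr12:49082241-49110781 (hg19, minus strand). Its level was 2.19, 1.04 and 2.18 FPKM in the controls and 5.01, 6.14 and 1.32 FPKM in the heat shock libraries. Heat shock replicates 1 and 2 were above every control and replicate 3 was among them. The log2 fold change was 0.76 ± 0.53 (SE, n = 3 per group, limma adjusted p = 0.708). Over the annotated transcript alone it was -0.77, because that transcript was listed at 0 in heat shock replicates 1 and 3, where assembled transcripts of nearly the same exons took its place.

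CCNT2, the other cyclin T, lies on chr2:135676392-135716915 (hg19, plus strand). Its level was 1.53, 0.576 and 1.28 FPKM in the controls and 3.16, 3.30 and 2.90 FPKM in the heat shock libraries, so every heat shock library was above every control. Such a separation was seen in 3.77% of the genes tested. The log2 fold change was 0.98 ± 0.44 (SE, n = 3 per group) with an unadjusted p of 0.0439 and an adjusted p of 0.708 in limma. An unadjusted p under 0.05 with a higher mean was reached by 2.01% of the genes tested. In heat shock replicate 3 the separation came from 1 assembled transcript of 569 bases and 2 exons at the start of the gene, which held 1.95 FPKM (Cufflinks 95% interval 0.598 to 3.31) with 52.0% of its bases outside annotated exons. The annotated NM_058241 held 0.941 FPKM in that library, within the range of the controls.

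By the plain sum of FPKM in the controls, MEPCE came first with 12.2 ± 8.22 FPKM (SD, n = 3), followed by LARP7 with 5.06 ± 2.45. HEXIM2, HEXIM1, CDK9 and CCNT1 followed with 2.88 ± 1.19, 2.05 ± 0.561, 1.89 ± 0.503 and 1.80 ± 0.663 FPKM, and neighbours in this order differed by less than the larger of their SDs. CCNT2 was last with 1.13 ± 0.496 FPKM. This order depends on the sum: weighted by transcript length, CDK9 came first with a mean of 6.84, before MEPCE with 4.94 and LARP7 with 4.49, and over annotated transcripts alone LARP7 had 5.06 and MEPCE 1.78 FPKM. In the heat shock libraries MEPCE had 19.3 ± 13.8 and LARP7 10.8 ± 7.24 FPKM, CCNT1, HEXIM1 and CCNT2 had 4.16 ± 2.52, 3.72 ± 1.75 and 3.12 ± 0.205 FPKM, and CDK9 and HEXIM2 had 2.56 ± 0.224 and 2.33 ± 0.733 FPKM. Here CCNT2 exceeded CDK9 by more than either SD, while the other neighbours in this order differed by less than the larger of their SDs. The CCNT2 values include the short assembled transcript of heat shock replicate 3. Weighted by transcript length, CDK9 was the higher of the pair, with 3.65 ± 2.22 against 2.49 ± 1.20 for CCNT2.

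Single libraries of both groups moved most of the log2 fold changes. Without heat shock replicate 3, the log2 fold change was 1.48 for LARP7, 1.14 for MEPCE, 0.92 for HEXIM1, 1.26 for CCNT1 and 1.02 for CCNT2. It was 0.36 for CDK9 and -0.34 for HEXIM2. LARP7, HEXIM1, CCNT1 and CCNT2 then had an unadjusted p under 0.05 and a higher mean, as did 41.0% of the genes tested, and the lowest adjusted p among the members was 0.0759, for CCNT1 (limma). The median over all genes tested was 0.84 in the same fit. Without heat shock replicate 2 the values moved the other way, to 0.36 for LARP7, 0.45 for CCNT1, 0.37 for HEXIM1 and -0.02 for HEXIM2, and without heat shock replicate 1 LARP7 was at 0.50. Among the controls, leaving out replicate 1 put LARP7 at 1.04 and CCNT2 at 1.12. Leaving out control replicate 2 put LARP7 at 0.40, MEPCE at 0.14 and CCNT2 at 0.78, and leaving out control replicate 3 put MEPCE at 0.99.

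7SK itself is not a member, and its value is that of assembled transcripts covering at least 50% of its annotated interval, since the assemblies carry no annotated entry for it. It was 112007, 79270 and 48268 FPKM in the controls and 322815, 402169 and 52491 FPKM in the heat shock libraries. Heat shock replicates 1 and 2 were above all controls and replicate 3 was above control replicate 3 alone. The log2 fold change was 1.33 ± 0.58 (SE, n = 3 per group) with an unadjusted p of 0.0391 and an adjusted p of 0.708 in limma. That unadjusted p depends on the variance model: limma gave 0.119 without a trend and 0.149 with a pseudocount of 0.1 FPKM. Without heat shock replicate 3 the log2 fold change was 2.26 (limma adjusted p = 0.064), and without heat shock replicate 2 it was 0.79. The share of all FPKM times length that 7SK took was 5.48%, 4.16% and 6.15% in the controls and 12.9%, 11.6% and 3.67% in the heat shock libraries. The genome holds many copies related to 7SK, and reads from them cannot be told apart in these values. In control replicate 3 its transcript ran 664 bases, joined with GSTA4, and its FPKM is spread over that length. Weighted by transcript length, heat shock replicate 3 had 65294, below every control (71294 to 130789). The log2 fold change of 7SK was then 1.08 ± 0.56 (SE, limma unadjusted p = 0.0809).

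Because short fragments inflate a sum of FPKM, the FPKM of each transcript was also weighted by its length, and the sum was divided by the common factor. On this scale 5 of the 7 members had a ratio of the highest to the lowest library between 1.09 and 1.74. CCNT1 was 2.22, 2.36 and 2.25 in the controls and 2.24, 2.41 and 2.43 in the heat shock libraries. Its coefficient of variation over all 6 libraries was 3.99%, and 0.901% of the genes tested had a lower one, beside a median of 39.6%. The coefficient of variation was 12.7% for LARP7, 16.0% for MEPCE, 22.2% for HEXIM1 and 23.1% for CCNT2, and 18.3%, 25.4%, 35.2% and 36.2% of the genes tested had a lower one. LARP7 spanned 4.80 to 6.63 in the controls and 4.75 to 5.49 in the heat shock libraries. MEPCE spanned 6.23 to 6.56 and 5.31 to 8.31, and HEXIM1 2.31 to 3.24 and 2.06 to 3.46. CCNT2 spanned 1.29 to 1.62 and 1.38 to 2.24, so that its groups overlapped.

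The limma log2 fold changes on this scale were 0.04 ± 0.14 for CCNT1, -0.07 ± 0.15 for LARP7, 0.01 ± 0.18 for MEPCE, -0.08 ± 0.22 for HEXIM1 and 0.15 ± 0.21 for CCNT2 (SE, n = 3 per group). The lowest of their adjusted p-values was 0.888. Over all genes tested on this scale the median log2 fold change was -0.20, so values near 0 lay above the median gene. 7SK had 137990, 162350 and 101069 in the controls and 163438, 160390 and 132501 in the heat shock libraries, a log2 fold change of 0.21 ± 0.19 (limma adjusted p = 0.886). A p that misses the threshold leaves changes of the size of these errors undetected.

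**Figure D2:**
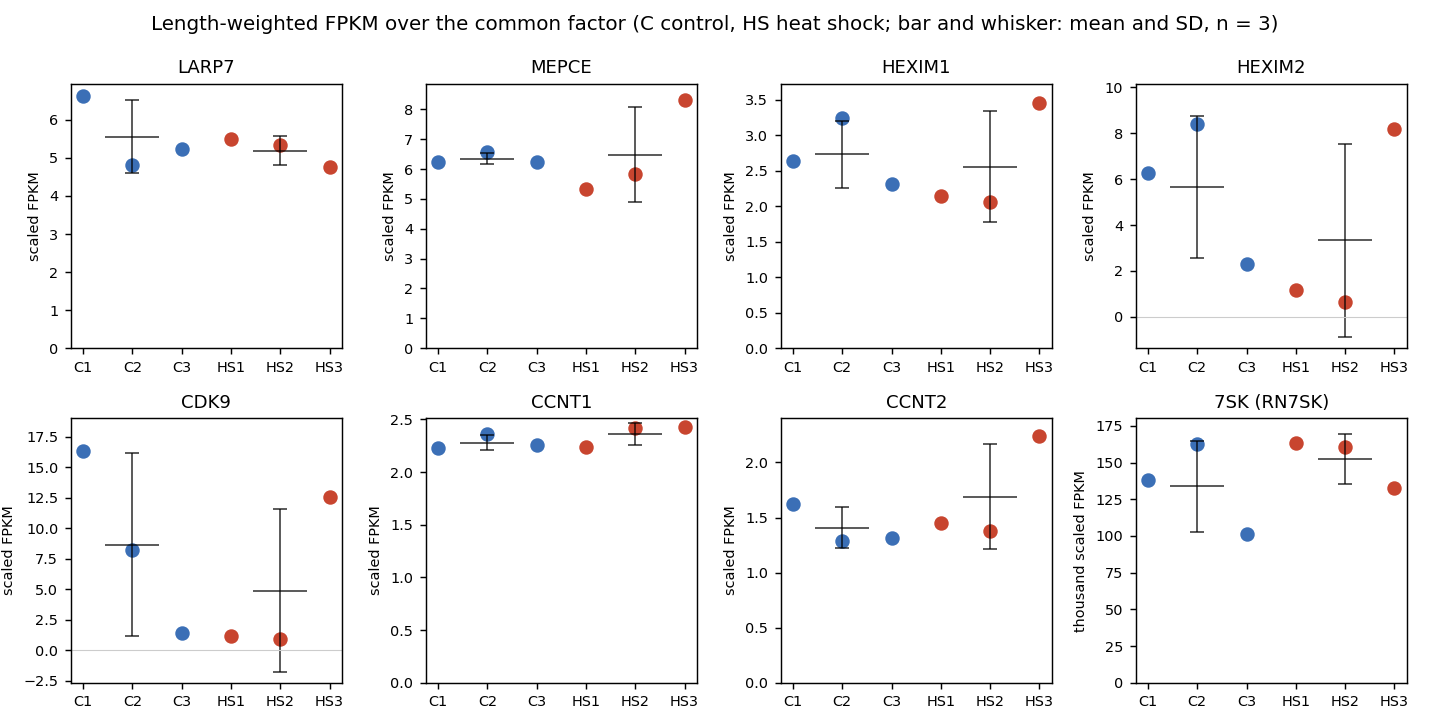
Length-weighted FPKM over the common factor (y axis; 7SK on a scale of its own) in each library (x axis; C control, HS heat shock), with the mean and SD of each group (n = 3). CCNT1 lies between 2.22 and 2.43 in all 6 libraries, while CDK9 and HEXIM2 are high in C1, C2 and HS3.

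CDK9 and HEXIM2 varied more, with ratios of the highest to the lowest library of 17.3 and 12.8. On the length-weighted scale over the common factor, CDK9 was 16.4, 8.19 and 1.43 in the controls and 1.17, 0.945 and 12.6 in the heat shock libraries. HEXIM2 was 6.27, 8.40 and 2.31 in the controls and 1.15, 0.657 and 8.19 in the heat shock libraries. For both genes the high libraries were control replicates 1 and 2 and heat shock replicate 3, the same 3 that held the most transcripts without a strand. The log2 fold changes were -0.92 ± 1.07 for CDK9 and -0.93 ± 0.78 for HEXIM2 (SE, n = 3 per group, limma adjusted p = 0.886 for each).

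In those 3 libraries most of the signal of CDK9 and HEXIM2 lay outside annotated exons. The share was 86.0%, 52.4% and 63.5% for CDK9 in control replicates 1 and 2 and heat shock replicate 3, and 6.37%, 1.36% and 2.60% in control replicate 3 and heat shock replicates 1 and 2. For HEXIM2 it was 59.1%, 55.0% and 62.1% against 6.81%, 0.0% and 0.0%. The annotated CDK9 transcript of 2472 bases was listed at 0 in control replicates 1 and 2 and heat shock replicate 3, where assembled transcripts of 4361 to 15952 bases ran over introns and past the 3′ end, up to base 130565051 in control replicate 1. The part inside annotated exons was also taken, length-weighted and divided by the common factor. On this scale CDK9 was 2.29, 3.90 and 1.34 in the controls and 1.16, 0.921 and 4.59 in the heat shock libraries. HEXIM2 was 2.57, 3.78 and 2.15 against 1.15, 0.657 and 3.10. The same 3 libraries are on top, but this order rests on the division and is not kept without it. The common factor was lowest in control replicate 2 and heat shock replicate 3 and highest in heat shock replicates 1 and 2. For the other members at most 21.2% of the signal, in MEPCE in control replicate 1, lay outside annotated exons. The part that the transcripts without a strand take in these values was not tested.

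**Figure D3:**
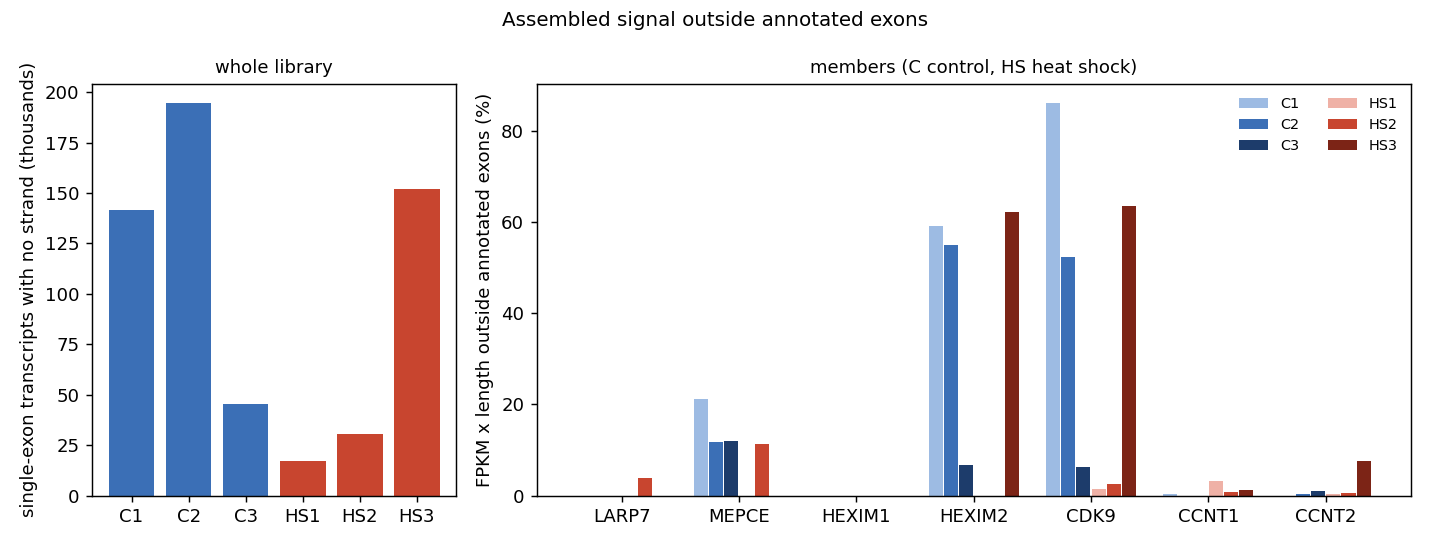
Left, single-exon transcripts without a strand in each library (y axis). Right, the share of FPKM times length outside annotated exons (y axis, percent) for each member and library (C control, HS heat shock). CDK9 and HEXIM2 reach 52.4% to 86.0% in C1, C2 and HS3 and stay at or below 6.81% in the other libraries.

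The merged locus of CDK9 in the authors' table also held the hairpin genes MIR2861 and MIR3960, which lie just upstream of CDK9. MIR2861, on chr9:130548197-130548286 (hg19), was listed at 31.4 FPKM in control replicate 1 (Cufflinks 95% interval 0.0 to 119) and at 0 in the other 5 libraries, and MIR3960 was listed at 0 in all 6. Libraries of this kind are not made to hold mature microRNAs, so this value is no measure of one. The authors' pooled FPKM of this locus was 17.1 in the control and 5.41 in the heat shock group, and it was the 1 member locus with a lower heat shock value. The mature miR-2861, with its seed (bases 2 to 8) in capitals, and the 250 bases before the CDK9 start site, with that microRNA in capitals, are shown to place the 2 features. Both are from RefSeq on GRCh38.p14, the promoter on chr9:127785784-127786033, plus strand, and the mature microRNA begins 63 bases before the start site.
hsa-miR-2861: gGGGCCUGgcggugggcgg
CDK9 promoter: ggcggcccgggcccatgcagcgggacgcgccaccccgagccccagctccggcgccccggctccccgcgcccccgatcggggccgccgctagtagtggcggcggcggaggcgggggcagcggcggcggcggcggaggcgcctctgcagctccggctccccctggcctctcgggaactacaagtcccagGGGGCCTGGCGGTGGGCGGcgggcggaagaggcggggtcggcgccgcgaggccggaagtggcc

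For the other merged loci the authors' pooled FPKM was 8.09 in the control and 40.3 in the heat shock group for MEPCE, 6.77 and 28.8 for LARP7, 2.72 and 10.4 for HEXIM1, and 2.45 and 4.70 for HEXIM2. It was 2.29 and 10.2 for CCNT1 and 1.42 and 6.15 for CCNT2. These values carry no spread between libraries. The locus of LARP7 spanned 118309 bases and took in the neighbouring ZGRF1, and that of MEPCE spanned 33255 bases and took in ZCWPW1, whose start overlaps MEPCE by 19 bases.

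Promoters of the members were searched for 2 arrangements of the half-site bound by heat shock factors, in windows from 250 bases before to 50 after each start site (RefSeq, GRCh38.p14). All 7 members had a window, 12 windows in all. GAANNTTC, which reads the same on both strands, was in 0 of the 12 and in 6.77% of 35116 promoters. TTCNNGAA, also its own reverse complement, was in 1 window, of CCNT1, and in 7.74% of promoters. Of 6 windows of heat shock genes, 4 held GAANNTTC and 0 held TTCNNGAA. Those 4 were of HSPA1A, HSPA1B and DNAJB1, and none was of HSPH1. HEXIM1 held TATAAA, searched on both strands, as did 11.5% of promoters. A match or its absence describes these letters only.

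Ratios between members were taken within each library. With 1 FPKM added they still depend in part on its scale at these low levels. The log2 ratio of HEXIM1 to HEXIM2, each with 1 FPKM added, was -0.58, -0.29 and -0.09 in the controls and 0.69, 1.20 and -0.56 in the heat shock libraries. By this sum HEXIM1 exceeded HEXIM2 in heat shock replicates 1 and 2 alone, whereas counting only the signal inside annotated exons it was the higher one in every library but control replicate 2. The difference of the means was 0.76 (exact permutation test, two-sided, p = 0.3, adjusted p = 0.84 over 6 ratios). It was 0.39 without heat shock replicate 2, 1.27 without heat shock replicate 3, and 1.03 with no pseudocount. The log2 ratio of CDK9 to the sum of its cyclins was -0.45, 0.07 and -0.85 in the controls and -1.27, -1.56 and -0.64 in the heat shock libraries, a difference of -0.75 (exact permutation test, two-sided, p = 0.2, adjusted p = 0.84). The lowest p that 3 libraries against 3 allow is 0.1, so no ratio could have passed 0.05.

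The other 4 ratios gave exact two-sided permutation p-values of 0.6 to 1.0. CCNT1 to CCNT2 was 0.33, 0.37 and 0.48 in the controls, a spread that the added 1 FPKM narrows at these low levels. It was 0.53, 0.73 and -0.75 in the heat shock libraries, where the last value includes the short CCNT2 fragment. Its difference was -0.22, -0.56 with no pseudocount, and 0.24 without heat shock replicate 3. LARP7 to MEPCE differed by 0.26, and by -0.09 without control replicate 3. LARP7 to CDK9 differed by 0.47, and by 1.12 without heat shock replicate 3 and 0.04 without heat shock replicate 2. The sum of the HEXIM genes to CDK9 was 1.16, 0.68 and 1.20 in the controls and 1.10, 1.06 and 0.77 in the heat shock libraries, a difference of -0.04.

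LARP7, MEPCE and CCNT2 have several annotated transcripts, and the share of the gene's FPKM held by the leading one varied widely within groups. For LARP7, NM_015454 held 55.6%, 41.5% and 52.6% in the controls and 0.0%, 63.3% and 44.2% in the heat shock libraries. In heat shock replicate 1 another annotated form, NM_016648, held 10.3 FPKM instead. For MEPCE, NM_001194992 held 0.0% in all controls and 80.8%, 0.0% and 69.2% in the heat shock libraries. For CCNT2, NM_058241 held 62.3%, 80.1% and 41.8% against 78.9%, 23.0% and 32.5%. The exact two-sided permutation p-values were 0.7, 0.4 and 0.4, and the adjusted values over the 3 genes were 0.7, 0.6 and 0.6. A share of 0.0% is an isoform to which Cufflinks assigned no fragments, and not a shown absence.

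Other genes of the pathway were taken from lists, of which 44 of 45 genes were tested. None was called by limma, all 44 had a higher mean as deposited, and 4, CCNH and 3 heat shock genes, had an unadjusted p under 0.05. Over all genes tested 72.8% were higher as deposited, and 2.01% were higher with an unadjusted p under 0.05. Of the super elongation complex, which brings active P-TEFb to genes, 8 of 9 were tested, with a median log2 fold change of 0.54 as deposited and -0.0043 over the common factor. AFF1, a scaffold of this complex, was at 1.09 ± 0.62 and EAF1, a partner of the ELL factors, at 0.65 ± 0.46 (log2 fold change ± SE as deposited). The 12 pausing and elongation factors, on which P-TEFb acts, had medians of 0.80 and -0.03. SUPT5H, a subunit of the pausing factor DSIF, was at 1.19 ± 0.87 and NELFCD, a subunit of the pausing factor NELF, at 1.29 ± 0.99. Length-weighted over the common factor, AFF1, EAF1, SUPT5H and NELFCD were at -0.06, -0.08, -0.11 and 0.04.

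The 8 other transcription kinases and their partners had medians of 0.78 as deposited and 0.08 over the common factor. CCNH, the cyclin of CDK7, was 5.29, 1.89 and 4.88 FPKM in the controls and 10.5, 12.9 and 27.0 FPKM in the heat shock libraries. Its log2 fold change was 1.79 ± 0.65 (limma unadjusted p = 0.016, adjusted p = 0.708), and 0.35 ± 0.29 when length-weighted over the common factor. MNAT1, which joins CDK7 to its cyclin, was at 1.22 ± 0.65. The 6 further 7SK-binding proteins had medians of 0.85 and -0.02, with DDX21, a helicase, at 0.79 ± 0.79 and HNRNPA2B1, an RNA-binding protein, at 1.01 ± 1.03. The 6 phosphatases, chaperones and cofactors had medians of 0.72 and 0.02. JMJD6, a nuclear oxygenase, was at 0.81 ± 0.65 and the phosphatase PPM1A at 0.62 ± 0.52. Length-weighted over the common factor, MNAT1, DDX21, HNRNPA2B1, JMJD6 and PPM1A were at 0.35, -0.03, 0.10, -0.02 and 0.07.

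As a check of the treatment, HSPA1A, HSPA1B, DNAJB1 and HSPH1 had a median log2 fold change of 2.30 as deposited and 1.48 over the common factor. DNAJB1, a co-chaperone of HSP70, was 7.32, 4.84 and 9.18 FPKM in the controls and 121, 116 and 34.0 FPKM in the heat shock libraries, a log2 fold change of 2.51 ± 0.19 over the common factor (limma unadjusted p = 1.32e-05, adjusted p = 0.139). HSPA1B, which codes for an HSP70, was at 1.87 ± 0.21 on that scale (limma adjusted p = 0.268).

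**Figure D4:**
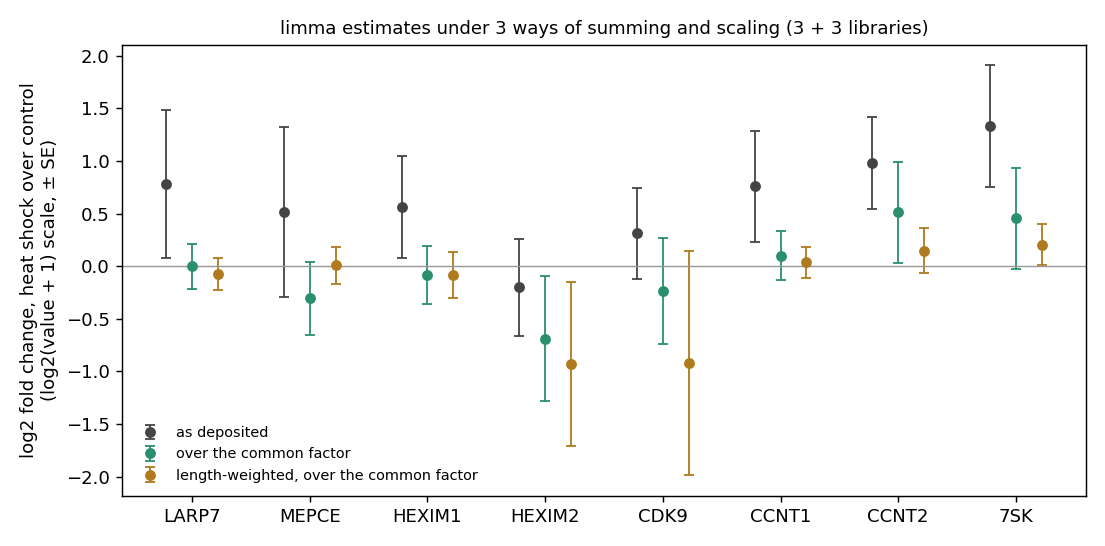
Limma log2 fold changes of heat shock over control (y axis, log2(value + 1) scale, ± SE, 3 libraries per group) for each member and 7SK (x axis), as deposited, over the common factor, and length-weighted over the common factor. On the last scale LARP7, MEPCE, HEXIM1, CCNT1 and CCNT2 lie between -0.08 and 0.15.

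For each member the gene with the most similar course over the 6 libraries was found by Pearson's r of log2(FPKM over the common factor + 1), among up to 2961 genes whose mean reached 10 FPKM. These were MALAT1 for LARP7 (r = 0.968), RPL35 for MEPCE (0.977), UBE2G2 for HEXIM1 (0.996), TUBA1B for HEXIM2 (0.985), MIR3180-5 for CDK9 (0.994), UQCRC2 for CCNT1 (0.983) and PTMA for CCNT2 (0.998). With 6 points and so many genes, values this high describe the libraries and carry no test. TUBA1B over the common factor was 417, 416 and 244 for the controls and 169, 141 and 419 for the heat shock libraries, high in the same 3 libraries as HEXIM2. PTMA followed the 1 high value of CCNT2, with 2625 in heat shock replicate 3 against 707 to 806 in the others.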

How the data were processed

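Per the study's methods, reads passed Trimmomatic 0.3.0 and were mapped by tophat2 to hg19. The authors then built the transcripts of every library in Cufflinks 2.0.2, guided by known hg19 genes. The deposited assemblies give an FPKM, an interval and a coverage for each transcript, and no scaling between libraries is stated. The deposited table of merged loci, made with cuffmerge and cuffdiff, holds 1 pooled FPKM per group, beside fold changes, test statistics, p-values and q-values that were not used.

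Transcript FPKM were summed per gene and library. Accessions were named through RefSeq (96.7% of 40803), assembled transcripts went to the gene they were grouped with, and those grouped with several genes were counted to none, microRNA hairpins aside. Since the files hold no counts, limma 3.58.1 (R 4.3.3, lmFit and eBayes with a trend) was run on log2(FPKM + 1), a scale that understates the change of low genes, with Benjamini-Hochberg adjustment. The p-values measure the spread between these 3 libraries per group. The common factor is a median of ratios over genes above 10 FPKM in every library. Length weighting multiplies each transcript's FPKM by its length and divides the sum by the longest annotated transcript of the gene. Depth is known only as coverage per FPKM, 1.0 to 2.03 relative to the shallowest library, and Cufflinks intervals cover counting and assignment only.

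The members, lists and tests were chosen with earlier results of these data known. A gene of these lists is not reported here. Genes named are the members, 7SK, the 2 genes of each list with the smallest p where none was called, the gene most alike each member, and genes sharing a locus with one. Other genes named were chosen after their values were seen. Alternatives were other scalings, pseudocounts, minimum levels, variance models and transcript choices, the replicate block, and leaving out each library. Hairpins counted as genes, length weighting, a term for the 3 libraries richest in transcripts without a strand, and the omission of those 3 were added after the values were seen.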

Additional observations from a re-analysis of the deposited data

How the results depend on the processing

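Neither a member nor a gene tested beside them in the lists was called as deposited, and no member was called under any alternative run. Of all genes tested limma called 3 as deposited, 0 over the common factor (length-weighted or not), with no minimum FPKM and without the 3 libraries richest in transcripts that lack a strand, 1 without a trend, 1 over annotated transcripts alone, 18 with the replicate block, and 3 to 13 with 1 library left out, the most without heat shock replicate 3. At an unadjusted p under 0.05 and the same 2-fold threshold it called 486, of which 263 were higher. In the lists it called 0 genes as deposited, 1, DNAJB1, after rescaling to TPM, and 4 at an unadjusted p with no fold.

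Over the common factor the log2 fold changes of LARP7, MEPCE, HEXIM1 and CDK9 turned to -0.0012, -0.30, -0.084 and -0.24. With a median of ratios over 15910 genes with a value in every library, LARP7 was at 0.38, MEPCE at 0.10 and HEXIM1 at 0.23. CDK9, CCNT1, CCNT2 and HEXIM2 were then at 0.02, 0.41, 0.73 and -0.46, and 7SK at 0.89. The median over all genes tested was 0.08 in that fit. After rescaling to TPM the log2 fold changes of MEPCE, HEXIM1 and CDK9 were -0.28, -0.075 and -0.31. With length weighting CDK9 was at -0.38, and with length weighting over the common factor LARP7, HEXIM1 and CDK9 were at -0.075, -0.084 and -0.92. Annotated transcripts alone turned CCNT1 to -0.77, and CDK9 and HEXIM2 then fell below the minimum FPKM. A term for the 3 libraries with many transcripts without a strand turned MEPCE to -0.030. With 1 library left out MEPCE spanned -0.0094 to 1.14 and HEXIM2 -0.37 to 0.036. The cause of these turns was not tested, beyond the scaling itself.

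Among the ratios, annotated transcripts alone turned HEXIM1 over HEXIM2 to -0.48, LARP7 over MEPCE to -1.04, CDK9 over its cyclins to 0.75, the HEXIM sum over CDK9 to 0.032 and LARP7 over CDK9 to -0.36. Length weighting turned CCNT1 over CCNT2 to 0.019, LARP7 over MEPCE to -0.076 and the HEXIM sum over CDK9 to 0.50. With 1 library left out these spanned -0.50 to 0.24 for CCNT1 over CCNT2, -0.093 to 0.62 for LARP7 over MEPCE and -0.21 to 0.064 for the HEXIM sum over CDK9, and the isoform share of LARP7 spanned -27.8 to 3.87 percentage points.

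The replicate numbers did not pair the libraries: deviations of same-numbered libraries correlated at 0.033, -0.341 and -0.391. With the replicate block 7SK kept its log2 fold change of 1.33 and was called (limma adjusted p = 3.89e-06), at a level far above all other genes, where the fitted trend of the variance is extrapolated, and no call of a member changed. Of the 7 members, 6 had a mean below 10 FPKM, and how far depth limits their values was not tested.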
